A study of Mus musculus with 36 samples.

Results

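The wild-type hippocampus was set against the wild-type striatum in bulk RNA-seq of mouse brain. The comparison takes 6 of the 36 libraries of the series: the 3 wild-type libraries labelled HP and the 3 wild-type libraries labelled STR, chosen by genotype and region label and not by any measured value. The series covers 6 brain regions in 2 genotypes of adult C57 mice aged 6 to 7 weeks, with 3 libraries for each region and genotype. The genotypes are wild type (WT) and a knock-in (KI) that carries a synonymous mutation of Maoa, the gene of the enzyme monoamine oxidase A. The other groups used here are the 3 KI HP and 3 KI STR libraries, in which the same regional contrast was measured again, and the WT libraries labelled PFc and Nac, whose levels are given for a few genes. No group received a treatment according to the labels. HP and STR are not spelled out there and were read as hippocampus and striatum. The labels do not tie a library to its own animal. The p-values therefore reflect only how far these libraries lie apart, and part of that may be technical. The sources used here do not give the sex, the dissection borders or any pooling of animals.

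The hippocampus is a part of the pallium and is built mainly of glutamatergic principal neurons: granule cells of the dentate gyrus and pyramidal cells of the fields CA1, CA2 and CA3. It is known for spatial and episodic memory and for its dense corticosteroid receptors. The striatum is a subpallial structure whose principal cells are GABAergic spiny projection neurons. One class of these carries the dopamine receptor Drd1 and the peptides substance P and dynorphin, and is called the direct pathway; the other carries Drd2, the adenosine receptor Adora2a and enkephalin, and is called the indirect pathway. Sparse, large cholinergic interneurons complete its best known cell types, and the whole region is densely supplied with dopamine by midbrain axons. In bulk tissue, fewer cells of a type and less RNA per cell cannot be told apart.

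The 6 libraries held between 17700411 and 18863503 estimated counts each, and pairs of libraries of a group differed from each other by more than counting noise. The region labels were checked on marker lists. Summed over the 14 measured CA1 markers, in CPM, which are estimated counts scaled to the size of each library, the WT HP libraries stood at 1586 to 1723 CPM and the WT STR libraries at 338 to 435. Summed over the 39 tested genes of striatal signalling, the WT HP libraries stood at 4418 to 4899 CPM and the WT STR libraries at 6765 to 16362. The labels therefore carried their own markers, but the WT STR libraries also carried markers of neighbouring tissue. Thalamic markers summed to 866, 1724 and 2332 CPM in WT STR 1, 2 and 3, against 327 to 372 CPM in WT HP. Choroid plexus markers summed to 14634, 21470 and 15597 CPM in WT STR 1, 2 and 3, against 281 to 1233 CPM in WT HP. WT STR 1 held the most striatal and the least thalamic signal, and WT STR 2 held more pallial transcripts than the other STR libraries. Within the KI libraries, striatal signalling genes summed to 17722 CPM in the one labelled KI HP 2, against 4265 and 4457 CPM in KI HP 1 and 3. They summed to 3660 CPM in the one labelled KI STR 3, against 8648 and 7468 CPM in KI STR 1 and 2. In this sum KI HP 2 and KI STR 3 went against their labels. Pallial transcription factors summed to 885 CPM in KI HP 2, against 2535 and 2591 CPM in KI HP 1 and 3. Cholinergic interneuron markers summed to 214 CPM in KI HP 2, against 12.4 and 9.83 CPM in KI HP 1 and 3. The lists of CA2 and CA3, glutamatergic output and indirect pathway neurons also set KI HP 2 apart towards STR. KI STR 3 was on the STR side for pallial and cholinergic genes. CA1 and thalamic markers went with the labels in both libraries. CA1 markers summed to 1500, 1192 and 1503 CPM in KI HP 1, 2 and 3. In KI STR 1, 2 and 3 they summed to 404, 490 and 318 CPM. Thalamic markers summed to 334 to 402 CPM in KI HP and 1321 to 1752 CPM in KI STR. Dentate gyrus markers summed to 809 CPM in KI HP 2 and to 747 to 848 CPM in KI STR. They summed to 1521 and 2236 CPM in KI HP 1 and 3. KI results are given with all 6 libraries and with the 4 other than KI HP 2 and KI STR 3.

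**Figure D1:**
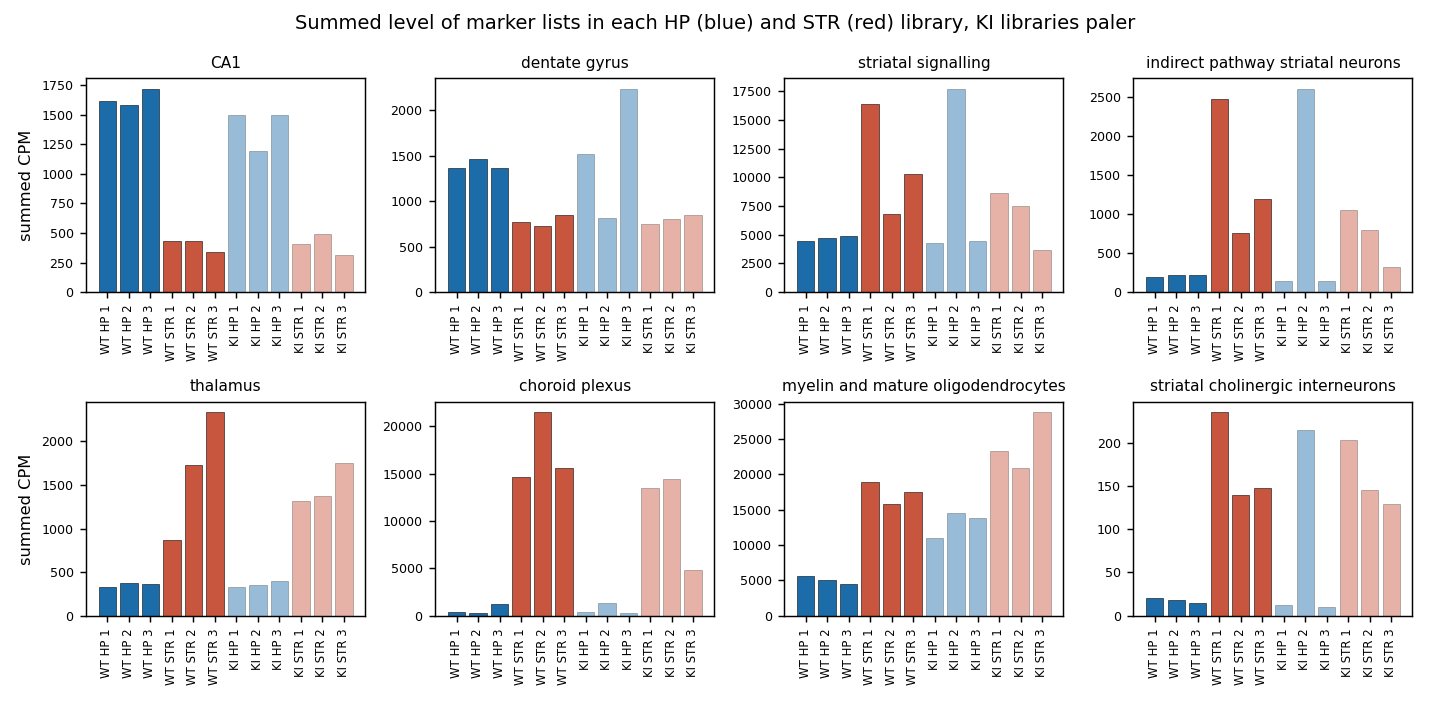
Summed CPM (vertical axis, from 0) of 8 marker lists in each of the 12 HP (blue) and STR (red) libraries, KI libraries paler; WT and KI libraries were normalised separately. CA1 markers were higher in every WT HP library than in any WT STR library, while thalamic and choroid plexus markers were high in all 3 WT STR libraries, and the library labelled KI HP 2 shows high striatal markers.

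Hippocampus and striatum differed at a large share of their genes. Of 14523 genes tested, 6325 (43.6%) passed edgeR's quasi-likelihood test at an adjusted p under 0.05 (Benjamini-Hochberg over all genes), 3057 (21.0%) higher in HP and 3268 (22.5%) higher in STR. The largest differences were mostly towards STR: 270 genes were called higher in HP and 596 higher in STR with a log2 fold change of at least 2, and 21 against 122 with one of at least 4. The median log2 fold change over all genes tested, here and below HP minus STR, was -0.03, with quartiles at -0.47 and 0.35. Under upper-quartile scaling that median moved to -0.13 and the share of calls that were higher in HP went from 48.3% to 37.1% (2373 higher in HP, 4016 higher in STR), so small differences are read relative to this shift. The HP and STR libraries did not overlap in CPM at 8100 genes (55.8%).

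The genes named below come from 40 lists of markers and pathways and from 1 rule on size, and each list is described by how many of its members passed in each direction beside its median. The background shares of 21.0% and 22.5% apply to all of these counts. In a fit over all 18 WT libraries, which share 1 estimate of the spread, the calls given below on C1qa, C1qc, C1ql2, Cbln4, Cdk1, Crym, Dcn, Dcx, Eomes, Gabra4, Gabrd, Grin2d, Kcnh4, Kcnq5, Maoa, Neurog2, Nr2f2, Pdyn, Prkcb, Prox1, Slc1a2, Slc1a3, Tbr1, Th, Top2a and Zbtb20 were lost, with adjusted p-values between 0.0535 for Prox1 and 0.306 for Top2a.

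**Figure D2:**
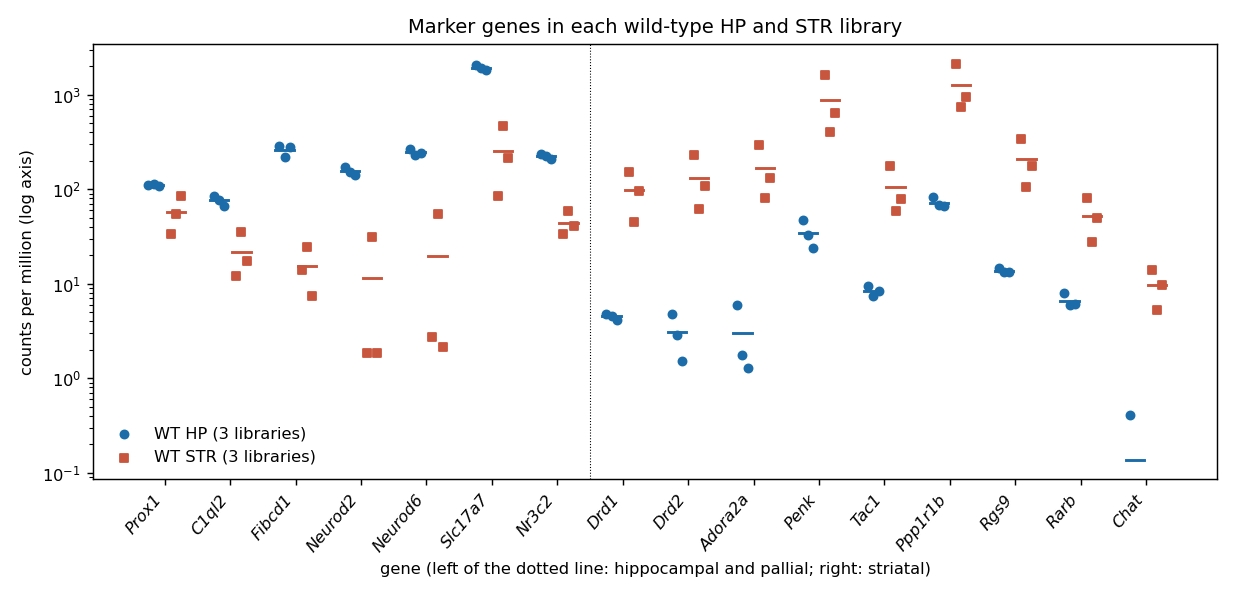
CPM (log axis) of 16 marker genes in the 3 WT HP (blue circles) and 3 WT STR (red squares) libraries, with a bar at each group's mean; libraries with a value of 0 (Chat in WT HP 2 and 3) have no point on the log axis. The groups do not overlap at any of the 16 genes; WT STR 2 is the highest STR library for Neurod2 and Neurod6 (30.9 and 54.7 CPM), and WT STR 1 for Drd1 (154 CPM).

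Genes of the dentate gyrus were mostly higher in HP: 14 of 20 passed higher in HP, 1 passed higher in STR and the list's median log2 fold change was 1.36. Lct, the gene of lactase and a known granule cell marker in mouse, was at 46.9, 65.8 and 42.8 CPM in WT HP and at 0.326, 7.49 and 2.45 CPM in WT STR. No STR library came near the HP range, and the log2 fold change was 3.91 (SE 0.666, adjusted p = 0.00206). Tdo2, which opens the tryptophan ring on the way to kynurenine, was 10.3-fold higher in HP (8.36, 7.67 and 8.22 CPM against 0.544, 1.04 and 0.745 CPM, adjusted p = 6.42e-05). C1ql2 and C1ql3 encode secreted complement-like proteins of the mossy fibre synapse. C1ql2 stood at 84.8, 77.6 and 67.2 CPM in HP and 12, 35 and 17.4 CPM in STR, and C1ql3 was 6.95-fold higher in HP. Prox1, the homeobox factor that sets granule cell identity, differed by less, with 112, 115 and 107 CPM in HP and 34, 55.1 and 85.3 CPM in STR. Its log2 fold change of 0.94 (SE 0.277) passed with an adjusted p of 0.025, and the call was lost (adjusted p between 0.0545 and 0.0726) on leaving out WT HP 1, 2 or 3 or WT STR 2. The exception in the list was Ntng1, a netrin that is also known from thalamic neurons: it stood at 24.2, 28.3 and 34.9 CPM in HP and at 61.2, 112 and 178 CPM in STR, where it followed the order of the thalamic marker sum; the part of thalamic tissue in this was not tested. Calb1, the calcium buffer calbindin, is carried by granule cells and by spiny projection neurons alike, and did not pass (159, 154 and 154 CPM against 246, 119 and 126 CPM, adjusted p = 0.833).

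CA1 had the highest median of the 40 lists, 2.73, with 10 of 14 measured members called higher in HP and none higher in STR. Fibcd1, a membrane lectin-like receptor that marks CA1 pyramidal cells, was at 285, 219 and 277 CPM in HP and 14.1, 24.2 and 7.4 CPM in STR, a log2 fold change of 4.09 (SE 0.38, adjusted p = 0.000124). Nr4a2, an orphan nuclear receptor, was 13.1-fold higher in HP, and Dkk3, a secreted relative of the Wnt antagonists, 6.69-fold. Ccn3, the current symbol of the listed gene Nov, was 37.2-fold higher in HP (142, 110 and 144 CPM against 3.97, 4.42 and 2.24 CPM, adjusted p = 1.80e-05). Wfs1, the wolframin gene and one of the best known CA1 markers, did not pass: it was at 98.2, 151 and 95.9 CPM in HP and 132, 111 and 107 CPM in STR, and the groups overlapped (log2 fold change -0.02, SE 0.187, adjusted p = 0.939).

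Of 18 measured genes of CA2 and CA3, 9 were called higher in HP and 2 higher in STR, with a median of 0.73. Nptx1, a neuronal pentraxin that clusters AMPA receptors, was at 972, 858 and 931 CPM in HP and 25.5, 147 and 34.7 CPM in STR (13.3-fold, adjusted p = 0.00179). Cabp7, a calcium-binding protein, showed the same uneven STR group, with 20.4, 120 and 12.8 CPM against 472, 353 and 333 CPM in HP. In both genes WT STR 2 was the highest STR library. Ntf3, the growth factor neurotrophin 3, and Homer3, a postsynaptic scaffold protein, were 6.13-fold and 4-fold higher in HP; the call on Ntf3 was lost without WT HP 1 (adjusted p = 0.0525) or WT HP 2 (0.0504). Coch and Map3k15 went the other way, Coch with 5.36, 11.8 and 10.7 CPM in HP and 103, 51.8 and 92.5 CPM in STR.

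Transcription factors of pallial neurons were higher in HP: 19 of 24 passed in that direction, 2 in the other, and the median was 1.72. Neurod2, a basic helix-loop-helix factor of glutamatergic neurons, was at 171, 154 and 141 CPM in HP and at 1.85, 30.9 and 1.86 CPM in STR. Neurod6, its relative, was at 268, 232 and 245 CPM in HP and at 2.72, 54.7 and 2.13 CPM in STR. WT STR 2 alone held the STR signal of both genes. With it the log2 fold changes were 3.75 (SE 0.923, adjusted p = 0.0117) and 3.64 (SE 1.04, adjusted p = 0.022), and without it they were 6.38 and 6.68. The call on Neurod6 was lost without WT HP 2 (adjusted p = 0.0543). Bhlhe22, Emx1, Fezf2 and Tbr1, further regulators of pallial neuron identity, were 13.5-fold, 7.63-fold, 12.2-fold and 7.49-fold higher in HP. Zbtb20, a zinc finger factor that CA1 needs in development, was at 15.9, 21.3 and 35.3 CPM in HP and 5.06, 5.67 and 12.1 CPM in STR (log2 fold change 1.67, SE 0.385, adjusted p = 0.0088). The 2 members called higher in STR were Lef1, a Wnt effector that thalamic neurons also carry, and Nr2f2, a nuclear receptor; the call on Nr2f2 (adjusted p = 0.0435) was lost on leaving out any library but WT STR 1 (adjusted p between 0.0612 and 0.154).

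The machinery of glutamatergic output followed, with 17 of 20 genes called higher in HP, 1 higher in STR and a median of 1.64. Slc17a7, the vesicular glutamate transporter of pallial neurons, was at 2071, 1923 and 1824 CPM in HP and 85.7, 467 and 212 CPM in STR (7.6-fold, SE 0.514 on the log2 scale, adjusted p = 0.00239). Slc17a6, the vesicular glutamate transporter of thalamic and other subcortical neurons, showed the reverse, with 7.54, 23.3 and 26.5 CPM in HP and 84.1, 167 and 227 CPM in STR (8.33-fold higher in STR, adjusted p = 0.00154). Its 3 STR values have the order of the thalamic marker sum, 866, 1724 and 2332 CPM; the part of thalamic tissue in the difference was not tested. Slc17a8, the transporter of certain interneurons, did not pass (adjusted p = 0.222). Slc30a3, which loads zinc into mossy fibre and other glutamatergic vesicles, was 11-fold higher in HP. Nptxr, the pentraxin receptor, was 6.96-fold higher in HP.

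Genes of indirect pathway striatal neurons were higher in STR by a median log2 fold change of -3.94, with 8 of 10 called higher in STR and none higher in HP. Adora2a was at 6.01, 1.74 and 1.29 CPM in HP and at 295, 80.7 and 131 CPM in STR (56.2-fold, adjusted p = 0.000326). Drd2 was at 4.83, 2.85 and 1.51 CPM in HP and at 228, 62.3 and 107 CPM in STR (43.3-fold, adjusted p = 0.000218). Penk, the gene of enkephalin, was at 46.8, 32.7 and 24 CPM in HP and at 1626, 408 and 641 CPM in STR (25.8-fold, adjusted p = 0.000308). In each of the 3 genes WT STR 1 was highest and WT STR 2 lowest among the STR libraries, and no HP library reached the lowest STR value. Upb1, which degrades pyrimidines, was detected in HP by 1 estimated count in 1 library and at 2.07, 1.2 and 1.06 CPM in STR. Grik3 and Necab1, also listed for this class, did not pass.

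Direct pathway genes gave a median of -1.95, with 7 of 11 called higher in STR and 2 higher in HP. Drd1 was at 4.83, 4.53 and 4.14 CPM in HP and at 154, 45.4 and 95.9 CPM in STR (log2 fold change -4.45, SE 0.43, adjusted p = 0.00015). Tac1, the gene of substance P, was 12.5-fold higher in STR (9.37, 7.44 and 8.28 CPM against 176, 59.1 and 79.7 CPM). Pdyn, the gene of dynorphin, which granule cells of the dentate gyrus also make, was 3.87-fold higher in STR (25.2, 24.3 and 21.6 CPM against 135, 57.9 and 82.3 CPM). Isl1, a LIM homeobox factor, was at 17.2, 12.7 and 15.4 CPM in STR and was represented in HP by 3, 3 and 1 estimated counts (107-fold, SE 0.315 on the log2 scale, adjusted p = 1.80e-05). Isl1 was even across the STR libraries, unlike Drd1, and is also carried by cholinergic interneurons. Chrm4, the muscarinic receptor of this class, did not pass: WT STR 1 stood at 68.7 CPM, but WT STR 2 at 24.9 CPM lay inside the HP range of 22.6 to 25.5 CPM. Eya1, a transcriptional coactivator, was 3.43-fold higher in HP.

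Genes of striatal signalling, which carry the response of spiny projection neurons to dopamine and adenosine, had 28 of 39 tested members called higher in STR, 3 higher in HP, and a median of -1.57. Ppp1r1b, the gene of DARPP-32, a phosphatase inhibitor switched by cAMP, was at 82.9, 68.3 and 65.8 CPM in HP and at 2131, 737 and 954 CPM in STR (17.6-fold, adjusted p = 0.000141). Rgs9, which turns off Gi-coupled signalling, was at 14.6, 13.3 and 13.2 CPM in HP and 343, 105 and 176 CPM in STR (15.2-fold, adjusted p = 0.000195). Both had the same order of STR libraries, WT STR 1 over 3 over 2. Pde10a, the cyclic nucleotide phosphodiesterase of the striatum, was 5.59-fold higher in STR and Pde1b, a calmodulin-dependent one, 5.56-fold. Scn4b, a sodium channel subunit, was 23.2-fold higher in STR (27.2, 31.4 and 27.3 CPM against 1037, 342 and 614 CPM). Sh3rf2, a ring finger protein, was 107-fold higher in STR (0.53, 0.174 and 0.168 CPM against 51.7, 11.7 and 31.2 CPM). Prkcd broke the order: it was at 141, 341 and 539 CPM in WT STR 1, 2 and 3, the order of the thalamic sum, and at 8.61 to 18.7 CPM in HP. That sum includes Prkcd itself, so the shared order is in part built in. The members higher in HP were the cannabinoid receptor Cnr1 (2.09-fold), Strn4 and Prkcb; without WT STR 1 their number rose from 3 to 6. The call on Prkcb was lost without WT HP 2, WT HP 3, WT STR 2 or WT STR 3 (adjusted p between 0.0553 and 0.0932).

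Striatal transcription factors had 17 of 22 tested members called higher in STR, 1 higher in HP and a median of -1.86. Six3, a homeobox factor of indirect pathway neurons, was at 0.943, 0.407 and 0.503 CPM in HP and at 71.8, 70.9 and 83.8 CPM in STR (log2 fold change -6.92, SE 0.237, adjusted p = 1.21e-05). Its level was nearly equal in the 3 STR libraries. Rarb, a retinoic acid receptor, was at 7.95, 5.93 and 6.04 CPM in HP and at 80.3, 27.6 and 49.7 CPM in STR (7.9-fold, adjusted p = 0.000434), and its partner Rxrg was 11.8-fold higher in STR. Foxp2, a forkhead factor of spiny neurons, was at 1.59, 5.12 and 5.37 CPM in HP and at 45, 24.6 and 38.5 CPM in STR (8.92-fold, adjusted p = 0.00048). Foxp1, its relative, which CA1 neurons also carry, did not pass, with 77.2, 80.9 and 96.7 CPM in HP and 159, 58.2 and 108 CPM in STR (adjusted p = 0.373). Bcl11b, another factor shared by both regions, did not pass either (adjusted p = 0.0889), and Bcl11a was 4.1-fold higher in HP.

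Markers of striatal cholinergic interneurons were called higher in STR in 11 of 13 cases, with a median of -4.38 and none higher in HP. Chat, the enzyme that makes acetylcholine, was at 14.1, 5.3 and 9.58 CPM in STR; in HP it had 7 estimated counts in WT HP 1 and none in the others (log2 fold change -6.09, SE 0.768, adjusted p = 0.000483). Slc18a3, the vesicular acetylcholine transporter, was at 0.471, 0.0581 and 0 CPM in HP and at 14.7, 5.56 and 7.29 CPM in STR. Lhx8, a LIM homeobox factor of forebrain cholinergic neurons, was at 10, 3.79 and 5.16 CPM in STR and had 4 estimated counts over the HP libraries. The summed level of the list was 14.2 to 20.6 CPM in HP and 140 to 235 CPM in STR. Lhx8 and Gbx1 are also markers of pallidum and septum.

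Interneuron genes shared by both regions split. Of 22 GABA interneuron genes, 7 were called higher in HP, 4 higher in STR and 11 did not pass, with a median of 0.15. Vip, a peptide of interneuron-selective cells, was at 19.2, 29.6 and 29.2 CPM in HP and at 2.34, 3.17 and 1.38 CPM in STR (11.3-fold, adjusted p = 8.41e-05). Crhbp, which binds corticotropin-releasing hormone, and Htr3a, the ion channel receptor of serotonin, were 9.03-fold and 6.19-fold higher in HP. Pvalb, parvalbumin, was at 39.2, 37.1 and 37.7 CPM in HP and at 283, 305 and 266 CPM in STR (7.49-fold, adjusted p = 1.21e-05); the pallidum and the thalamic reticular nucleus are also rich in it. The GABA-synthesising and packaging genes Gad2 and Slc32a1, which spiny projection neurons carry too, were 2.64-fold and 3.62-fold higher in STR. Sst and Npy did not pass: Sst was at 153, 149 and 161 CPM in HP and 230, 168 and 138 CPM in STR. Calb2, calretinin, was at 219 CPM in WT STR 2 and at 30.1 to 45.2 CPM in the other 5 libraries, and did not pass (adjusted p = 0.0645).

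Neuropeptide genes had 5 of 21 members called higher in HP and 8 higher in STR, with a median of -0.44. Grp, gastrin-releasing peptide, was at 19.2, 15.7 and 18.3 CPM in HP and 0.544, 0.936 and 0.479 CPM in STR (26.8-fold, adjusted p = 2.60e-05). Cort, cortistatin, was 8.53-fold higher in HP and Bdnf, brain-derived neurotrophic factor, 6.52-fold. Trh, thyrotropin-releasing hormone, was at 0.295, 0.523 and 0.224 CPM in HP and at 21.3, 21.6 and 20.8 CPM in STR (60.2-fold, adjusted p = 1.21e-05). Its 3 STR values were nearly equal, whereas Penk and Tac1 differed between the same libraries. Trh is also in the list of pallidum and septum markers.

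Among dopamine genes, 7 of 9 tested passed higher in STR and 1 higher in HP. Drd5, the dopamine receptor of hippocampal neurons, was at 21.1, 17.7 and 21.5 CPM in HP and at 2.94, 5.2 and 2.87 CPM in STR (5.46-fold, adjusted p = 0.000157). Th, the enzyme that makes the dopamine precursor, was at 0.236, 0.814 and 0.447 CPM in HP and at 6.96, 2.55 and 3.35 CPM in STR (8.47-fold, adjusted p = 0.00208). Drd3, Drd4 and the dopamine transporter Slc6a3 were below the filter on low counts. Maoa, which oxidises serotonin and noradrenaline and is the gene altered in the KI mice, was at 33.8, 34.9 and 36.3 CPM in WT HP and at 42.2, 47.3 and 45 CPM in WT STR. The groups did not overlap, and STR was 1.28-fold higher (log2 fold change -0.36, SE 0.104, adjusted p = 0.0236). That call was lost on leaving out any WT HP library or WT STR 2 (adjusted p between 0.0625 and 0.08), with log2 fold changes of -0.38 to -0.32, and in a fit over all 18 WT libraries (adjusted p = 0.133).

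Serotonin and adrenergic receptors had 8 of 20 tested members called higher in HP and 5 higher in STR. Htr1a, the inhibitory serotonin receptor of CA1 and granule cells, was at 47.1, 44.6 and 55.4 CPM in HP and 3.97, 8.99 and 3.35 CPM in STR (8.99-fold, adjusted p = 0.000202). Adra1d, an alpha-1 receptor of noradrenaline, was 5.03-fold higher in HP, while Adra1b was 5.71-fold higher in STR (2.77, 7.15 and 6.6 CPM against 18.5, 30.5 and 45.6 CPM). Relatives of 1 receptor class thus lay on opposite sides. The 3 STR values of Adra1b have the order of the thalamic marker sum, and the part of thalamic tissue was not tested. Htr1d, a presynaptic receptor, was 17.4-fold higher in STR. Adra2b had 1, 1 and 0 estimated counts in HP and stood at 3.91, 5.56 and 6.28 CPM in STR (adjusted p = 5.90e-05). These STR values have the order of the thalamic marker sum too. The beta receptor Adrb1 did not pass (adjusted p = 0.546).

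Of 19 tested receptors of acetylcholine, adenosine, opioids and cannabinoids, 8 were called higher in HP and 6 higher in STR. Chrna5 and Chrna7, subunits of nicotinic receptors, were 11.3-fold and 6.65-fold higher in HP, Chrna7 with 11.2, 11.5 and 16.6 CPM against 1.3, 1.92 and 2.66 CPM. Chrm5, a muscarinic receptor, was 7.77-fold higher in HP, with 4.42 CPM in WT HP 3 and 1.41 and 1.74 CPM in the others. Oprk1, the dynorphin receptor, was 3.91-fold higher in STR (1.47, 2.27 and 2.91 CPM against 10.4, 8.21 and 7.51 CPM), and Oprd1 did not pass. The mu receptor Oprm1 was below the filter.

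Subunits of GABA receptors showed a subunit-by-subunit pattern, with 7 of 15 tested called higher in HP and 3 higher in STR. Gabra5, the subunit of extrasynaptic receptors of pyramidal cells, was at 275, 227 and 243 CPM in HP and at 22.9, 53.5 and 15.1 CPM in STR (8.13-fold, adjusted p = 0.000685). Gabra2 was 2.8-fold higher in HP. Gabrd, the delta subunit of tonic receptors, was at 28.7, 38.1 and 30.8 CPM in HP and at 151, 110 and 132 CPM in STR (4.02-fold, adjusted p = 6.70e-05). Gabra4 was 1.71-fold higher in STR, and its call was lost without WT HP 2 (adjusted p = 0.0543). Gabbr1, a subunit of the metabotropic receptor, was at 738 to 792 CPM in HP and 722 to 798 CPM in STR.

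Ionotropic glutamate receptor genes had 9 of 18 members called higher in HP and 2 higher in STR. Their summed level was 4150 to 4860 CPM in HP and 1837 to 1856 CPM in STR. Gria1, an AMPA receptor subunit, was at 1201, 1109 and 1288 CPM in HP and 317, 384 and 256 CPM in STR (3.76-fold, adjusted p = 8.24e-05), and Grin2a, an NMDA receptor subunit, was 5.33-fold higher in HP (400, 420 and 445 CPM against 64, 85.9 and 87.2 CPM, adjusted p = 3.59e-05). The rarer NMDA subunits Grin2d and Grin3b were 1.67-fold and 3.95-fold higher in STR. Of 10 metabotropic receptors and Homer scaffolds, 5 were called higher in HP and 2 higher in STR. Grm4, a presynaptic receptor, was 5.73-fold higher in STR (8.48, 13.8 and 12.1 CPM against 68.7, 52.7 and 75.8 CPM), and Grm2 2.47-fold higher in HP.

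Corticosteroid genes had 4 of 11 members called higher in HP and 3 higher in STR. Nr3c2, the mineralocorticoid receptor, was at 238, 224 and 209 CPM in HP and at 34, 58.4 and 40.9 CPM in STR (5.03-fold, adjusted p = 7.87e-05). Nr3c1, the glucocorticoid receptor, was at 104, 115 and 113 CPM in HP and at 89.9, 84.6 and 131 CPM in STR, and the groups overlapped (log2 fold change 0.12, SE 0.169, adjusted p = 0.603). Among targets that both receptors are known to induce, Fkbp5 was 2-fold higher in HP, while Sgk1 and Tsc22d3 were 1.71-fold and 1.6-fold higher in STR. The receptor Crhr2 was 7.19-fold higher in STR.

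Genes of retinoic acid handling had 8 of 17 tested members called higher in STR and 1 higher in HP, with a median of -0.49. Besides Rarb and Rxrg, Crabp1, which carries retinoic acid in the cytosol, was 7.15-fold higher in STR (1.24, 0.349 and 0.503 CPM against 8.81, 3.12 and 3.09 CPM). Rara was 1.64-fold higher in HP, a call lost without WT HP 2 (adjusted p = 0.0738). Rarres2 is also a marker of ependyma. In the cAMP pathway 10 of 31 genes were called higher in HP and 7 higher in STR, with a median of 0.18. Different adenylyl cyclases and phosphodiesterases were higher in each region. Adcy1 and Adcy9 were 2.73-fold and 2.99-fold higher in HP, and Pde1a was at 217, 217 and 313 CPM in HP and 19.5, 33.6 and 14.8 CPM in STR (11-fold). On the STR side lay Ppp1r1b, Pde10a, Pde1b, Adcy5, Pde7b, Gnal and Prkar2b, while the ubiquitous Gnas and Gnao1 did not pass.

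Ephrin, semaphorin and plexin genes, known for axon guidance and synapse maintenance, had 22 of 37 members called higher in HP and 7 higher in STR, with a median of 0.65. Plxna4, a semaphorin receptor, was at 186, 219 and 228 CPM in HP and at 33.1, 54.2 and 54 CPM in STR (4.48-fold, adjusted p = 0.000117). Its co-receptor Nrp1 was 4.23-fold higher in HP. Epha8 was the leading gene towards STR, at 2.42, 1.92 and 2.52 CPM in HP and 16.1, 14.3 and 21.9 CPM in STR (7.63-fold, adjusted p = 5.96e-05). Of 26 Wnt pathway genes, 7 were called higher in HP and 8 higher in STR (5 without WT HP 2). Rspo2, a secreted Wnt enhancer, was 11.5-fold higher in HP (20.5, 19.1 and 20 CPM against 0.761, 3.59 and 0.799 CPM). Tcf7l2, a Wnt effector and a thalamic marker, was 17.5-fold higher in STR, with 51.1, 91.6 and 108 CPM in the order of the thalamic sum. Tcf7l2 is itself part of that sum, so the match in order is partly built in.

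Voltage-gated potassium channel genes had 13 of 35 members called higher in HP and 5 higher in STR, with a median of 0.31. Kcng2, a silent subunit that modifies other channels, was 9.42-fold higher in HP, and Kcnq5, a subunit of the M-current, 2.62-fold. Kcna5 was at 1.47, 1.92 and 1.96 CPM in HP and at 21, 7.9 and 11.2 CPM in STR (7.46-fold, adjusted p = 0.000568), and Kcnh4 was 3.56-fold higher in STR. Of 29 sodium and calcium channel genes, 14 were called higher in HP and 4 higher in STR. Cacna1e, an R-type calcium channel, was at 322, 357 and 371 CPM in HP and at 109, 93.8 and 79.3 CPM in STR (3.72-fold, adjusted p = 5.90e-05). Scn3b was 3.45-fold higher in HP, opposite to Scn4b, another beta subunit of the same channels.

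Of 15 tested genes of new neurons and progenitors, 3 were called higher in HP and 4 higher in STR. Neurog2, a proneural factor of glutamatergic progenitors, was at 2.18, 1.1 and 2.07 CPM in HP and 0.489, 0.416 and 0.213 CPM in STR (4.72-fold, adjusted p = 0.00339). Dcx, doublecortin, was 1.47-fold higher in HP. The calls on Dcx, Cdk1, Top2a and Eomes were lost without WT HP 2 (adjusted p between 0.0647 and 0.131) and without WT HP 3 (0.0586 to 0.147). That on Eomes was also lost without WT HP 1 (0.0606) or WT STR 2 (0.211) and with a replicate block (0.0788), and that on Top2a without WT STR 3 (0.0938). Without WT HP 2 the counts were 1 higher in HP and 2 higher in STR, and without WT HP 3 the count higher in STR was 1. Immediate early genes, which neurons switch on within minutes of activity, had 6 of 20 called higher in HP and 1 higher in STR, and 10 higher in HP without WT STR 1. Nr4a3 was at 135, 124 and 115 CPM in HP and at 21.4, 26.7 and 17 CPM in STR (5.73-fold, adjusted p = 4.18e-05), and Dusp1, a phosphatase, was 1.73-fold higher in STR. Egr1 varied more within a region than between regions, with 101, 240 and 163 CPM in HP and 259, 99.9 and 166 CPM in STR (adjusted p = 0.915).

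All 15 genes of myelin and mature oligodendrocytes were called higher in STR, with a median of -1.80. Their summed level was 5659, 5005 and 4526 CPM in WT HP 1, 2 and 3 and 18972, 15813 and 17550 CPM in WT STR 1, 2 and 3. Mag, an adhesion molecule of the inner myelin layer, was at 206, 185 and 159 CPM in HP and 867, 640 and 694 CPM in STR (4.01-fold, adjusted p = 6.55e-05), and Hapln2 and the iron carrier Trf were 4.82-fold and 4.77-fold higher in STR. Of 10 oligodendrocyte precursor genes, 6 were called higher in STR and 1 higher in HP. The precursor-defining genes Pdgfra and Cspg4 did not pass. Among the members that led, Sox10 (2.96-fold) and Olig1 (2.2-fold) are carried by mature oligodendrocytes too. Lhfpl3 ranked between them, at means of 18.3 CPM in HP and 49.3 CPM in STR, in CPM of the library total.

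Astrocyte genes split: 3 of 19 were called higher in HP and 7 higher in STR. The glutamate transporters Slc1a2 and Slc1a3 were 1.63-fold and 1.6-fold higher in HP, Slc1a2 with 2206, 2761 and 2743 CPM against 1458, 1405 and 1859 CPM. Agt, angiotensinogen, was at 27.2, 21.6 and 22.3 CPM in HP and at 97.4, 128 and 105 CPM in STR (4.65-fold, adjusted p = 4.07e-05). Gfap and Aldoc did not pass. Crym, a thyroid hormone binding protein, was 3.51-fold higher in HP; neurons also make it. Of 14 microglial genes, 5 were called higher in STR, among them the complement genes C1qa, C1qb and C1qc at 1.58-fold to 1.7-fold, and the defining receptors Cx3cr1 and P2ry12 did not pass. Of 14 endothelial and pericyte genes, 3 were called higher in STR (8 without WT STR 2, 5 without WT HP 2), led by Ly6c1 at 1.87-fold, whose reads could be shared with close relatives.

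Choroid plexus genes were called higher in STR at all 17 members, with a median of -4.71. Aqp1, the water channel of the plexus, was at 0.648, 0.174 and 1.9 CPM in HP and at 45.8, 59.5 and 46.2 CPM in STR (54.6-fold, adjusted p = 7.07e-05). Ttr, transthyretin, was the most abundant gene of the STR libraries by the authors' TPM values, which are scaled for transcript length and depth, at a mean of 41550 and a range of 35031 to 50989, against 191 to 2886 in HP. Ependymal genes passed in 11 of 12 cases, all higher in STR, with a median of -2.17, and Igf2 and Igfbp2 of the meninges list, which the plexus also makes, were 12.9-fold and 7.26-fold higher in STR. With the lists of choroid plexus, ependyma and meninges taken out before normalisation, 3284 genes were called higher in HP and 3079 higher in STR.

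Thalamic markers were called higher in STR at 12 of 14 members, with a median of -3.88. Shox2, a homeobox gene of thalamic neurons that was not in the list, was the largest difference of all named genes, at 34.9, 67.1 and 100 CPM in STR against 6, 1 and 0 estimated counts in HP (476-fold, SE 0.666 on the log2 scale, adjusted p = 5.96e-05). Gbx2, a regulator of thalamic identity, was at 5.65, 12.5 and 11.8 CPM in STR and had 2 estimated counts in 1 HP library. Of 13 tested markers of pallidum and septum, 7 were called higher in STR and 2 higher in HP. Lhx8 and Trh, given above, had the largest differences towards STR. Zic1, which is in the thalamus list too, followed with 75.8, 189 and 177 CPM in STR and 4.06 to 6.28 CPM in HP (30-fold). Of 7 tested hypothalamic genes, 6 were called higher in STR. The 7 summed to 36.8 to 73.2 CPM in STR and to 18.3 to 24.1 CPM in HP. Hcrt and Sim1 were below the filter and outside this sum, and were at 0 in every HP library. Cortical layer genes gave 4 of 18 higher in HP and 6 higher in STR, and a median of 0.23. The part of these neighbouring tissues in the other differences was not tested; WT STR 1, the library with the lowest thalamic sum, had the highest level of Drd1, Drd2, Adora2a, Penk, Tac1, Ppp1r1b, Rgs9, Rarb and Chat.

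Cytosolic ribosomal protein genes had 15 of 64 members called higher in STR and none higher in HP, with a median of -0.39. Rpl36 was at 69, 55.5 and 54.8 CPM in HP and 122, 96.5 and 68.8 CPM in STR. The count rested on single libraries: it was 0 without WT HP 2 or WT HP 3, 3 without WT STR 1, 2 without WT STR 2 and 44 without WT STR 3. In the 4 KI libraries 1 gene was called higher in HP and none higher in STR, with a median of 0.19.

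**Figure D3:**
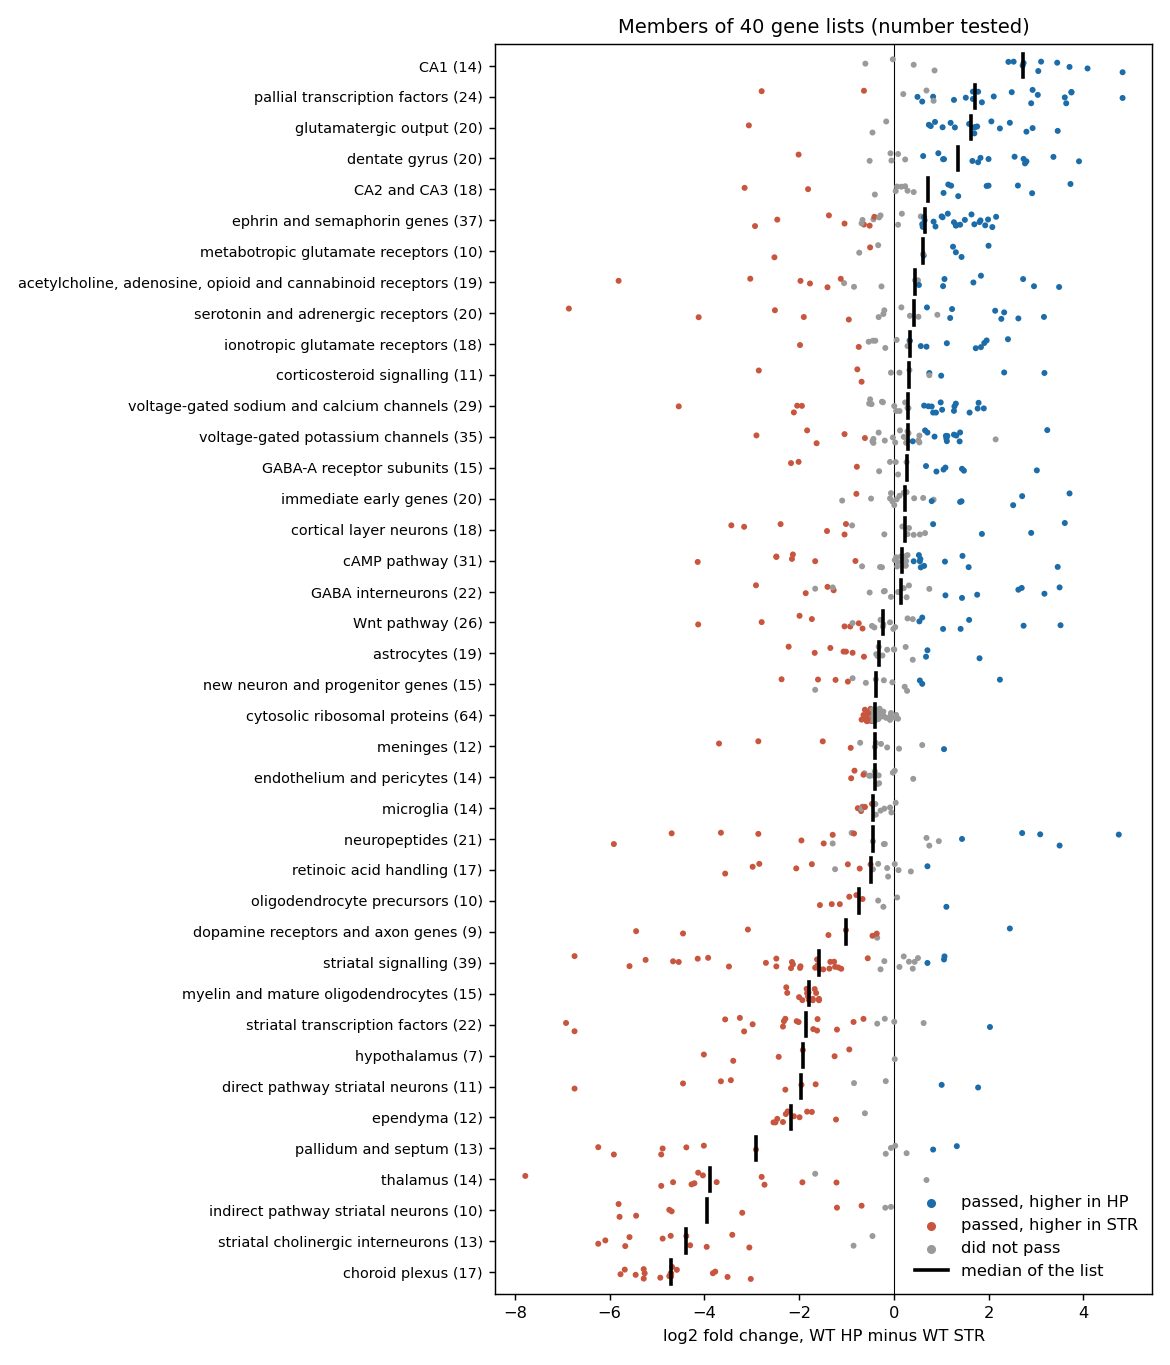
Log2 fold change, HP minus STR (horizontal axis), of the tested members of the 40 lists, ordered by the list's median (black bar); blue points passed higher in HP, red points passed higher in STR and grey points did not pass. Medians run from -4.71 for choroid plexus to 2.73 for CA1, and lists of receptors and channels hold blue and red members side by side.

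Apart from the lists, the 12 largest differences in each direction were named by rule, among called genes with groups that do not overlap and a mean log2 CPM of at least 1. Among those higher in HP were Ccn3, Fibcd1, Glp2r, Glt8d2, Grp, Krt2, Lct, Ntn5, Rtn4rl2, Slc9a4 and Sstr4. Krt2, a keratin gene, was at 8.54, 9.07 and 7.1 CPM in HP and at 0.0544, 0.156 and 0.0532 CPM in STR (86.3-fold, adjusted p = 3.35e-05). Glp2r, the receptor of glucagon-like peptide 2, was uneven in HP, with 1.83, 4.3 and 6.77 CPM, and stood at 0.163, 0.104 and 0.0532 CPM in STR. Rtn4rl2, a Nogo receptor relative, and Slc9a4, a sodium-proton exchanger, were 18.1-fold and 18.7-fold higher in HP, in both cases with the highest STR value in WT STR 2 (8.11 and 3.95 CPM). Sstr4, a somatostatin receptor, was 19.7-fold higher in HP (6.13, 8.31 and 13.2 CPM against 0.381, 0.52 and 0.479 CPM).

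Higher in STR by the same rule were Adra2b, Cckar, Cd4, Chat, Fbxo40, Gbx2, Isl1, Lhx8, Serpina9, Sh3rf2, Shox2 and Six3. Cd4, best known as the co-receptor of helper T cells, was at 46.7, 13.8 and 19.1 CPM in STR and 0.943, 0.233 and 0 CPM in HP (67.6-fold, adjusted p = 0.000482). Serpina9, a serine protease inhibitor, was at 37.7, 10.6 and 14.6 CPM in STR and 0.412, 0.291 and 0 CPM in HP (88.1-fold, adjusted p = 0.000323). Both genes were highest in WT STR 1 and lowest in WT STR 2, the order of Drd2 and Adora2a. Cckar, a cholecystokinin receptor, was at 4.02, 6.03 and 7.67 CPM in STR and had 2 estimated counts in 1 HP library, and its STR values have the order of the thalamic sum.

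The levels of a few of these genes in the other forebrain regions of the WT mice, in CPM of the library total, place the difference. Slc17a7 was at a mean of 1859 CPM in HP, 1734 in PFc, 333 in Nac and 267 in STR. Ccn3 was at 161 CPM in PFc (range 134 to 175) and 126 CPM in HP (range 107 to 137). Lct (49.8 CPM in HP against 0.910 in PFc and 0.662 in Nac), Fibcd1 (249 against 7.03 and 21.7) and Nr3c2 (214 against 43.5 and 54.7) had HP ranges above those of the other 3 regions. Some striatal genes had Nac levels near those of STR: Drd1 was at 102 CPM in STR, 90.2 in Nac and 15.9 in PFc, and Rarb at 54.7, 49.9 and 7.53 CPM. Six3 was at 74.2 to 87.7 CPM in STR and 15.7 to 36.7 CPM in Nac, and Prkcd at 146 to 564 CPM in STR and 15.9 to 139 CPM in Nac, without overlap. The Nac group was uneven, with Drd1 from 2.88 to 150 CPM, so STR and Nac ranges overlapped. These levels are a description and were not tested.

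The same contrast in the KI mice shares no library with the WT contrast. With all 6 KI libraries, 1053 of 14540 genes (7.24%) passed, 547 (3.76%) higher in HP and 506 (3.48%) higher in STR. Without the libraries labelled KI HP 2 and KI STR 3, 4908 of 14624 genes (33.6%) passed, 2213 (15.1%) higher in HP and 2695 (18.4%) higher in STR, each region then resting on 2 libraries. With all 6, 2835 of the 3010 genes called higher in HP in WT (94.2%, against 53.5% of all genes tested in both) had the same direction, 456 were called the same way and 1 the opposite way. Of 3223 genes called higher in STR in WT, 2902 (90%, against 46.5% of all) had the same direction, 425 were called the same way and none the opposite way. The libraries left out were chosen by their striatal markers, so region genes that repeat in the other 4 are in part set by that choice, and the values that follow are a description. Of the 3031 genes called higher in HP in WT and tested in those 4 libraries, 2835 (93.5%) had the same direction, against 51.1% of all genes tested in both, and 1680 (55.4%) were called the same way; 20 were called the opposite way. Of the 3241 called higher in STR, 3065 (94.6%, against 48.9% of all) had the same direction, 1957 (60.4%) were called the same way and 2 the opposite way. Read from the other side, 76.2% of the 2205 genes called higher in HP in KI and 75.5% of the 2593 called higher in STR were called the same way in WT.

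The striatal markers depend most on these libraries. Drd1 had a log2 fold change of -4.45 in WT, 0.74 in all 6 KI libraries (adjusted p = 0.794) and -3.84 in the 4. Adora2a had -5.81 in WT, 0.53 in the 6 (adjusted p = 0.87) and -5.02 in the 4. The hippocampal genes moved less: Fibcd1 had 4.09, 2.39 and 2.88, and Nr3c2 had 2.33, 1.92 and 2.38, in both cases without a call in the 6. Maoa had -0.36 in WT, -0.52 in the 6 (adjusted p = 0.0675) and -0.61 in the 4, where it was called. Prox1 had 0.94, 0.98 (adjusted p = 0.372) and 1.55, also called in the 4. Some named genes were called in neither KI fit, among them, with WT and 4-library values, Glp2r (5.25 and 1.54), Zbtb20 (1.67 and 0.67), Gabrd (-2.01 and -0.50) and the complement genes (C1qa -0.69 and 0.17). Cbln4 was 1.33 in WT and below 0 in KI, without a call in KI. Dcn, a matrix protein of the meninges, was called in opposite directions, 1.06 in WT against -1.18 in the 6 KI libraries and -1.22 in the 4. The interaction of region and genotype was called for 0 of 14880 genes by edgeR over all 12 libraries, where 1789 had an unadjusted p under 0.05 and the smallest adjusted p was 0.162; DESeq2 called 119, and edgeR called 3 without WT STR 2 and 1 without KI HP 1. Without the 2 libraries that stood apart edgeR called 0 of 14973, with a smallest adjusted p of 0.0528. The p-values that miss the threshold do not show that the genotypes share every regional difference.

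**Figure D4:**
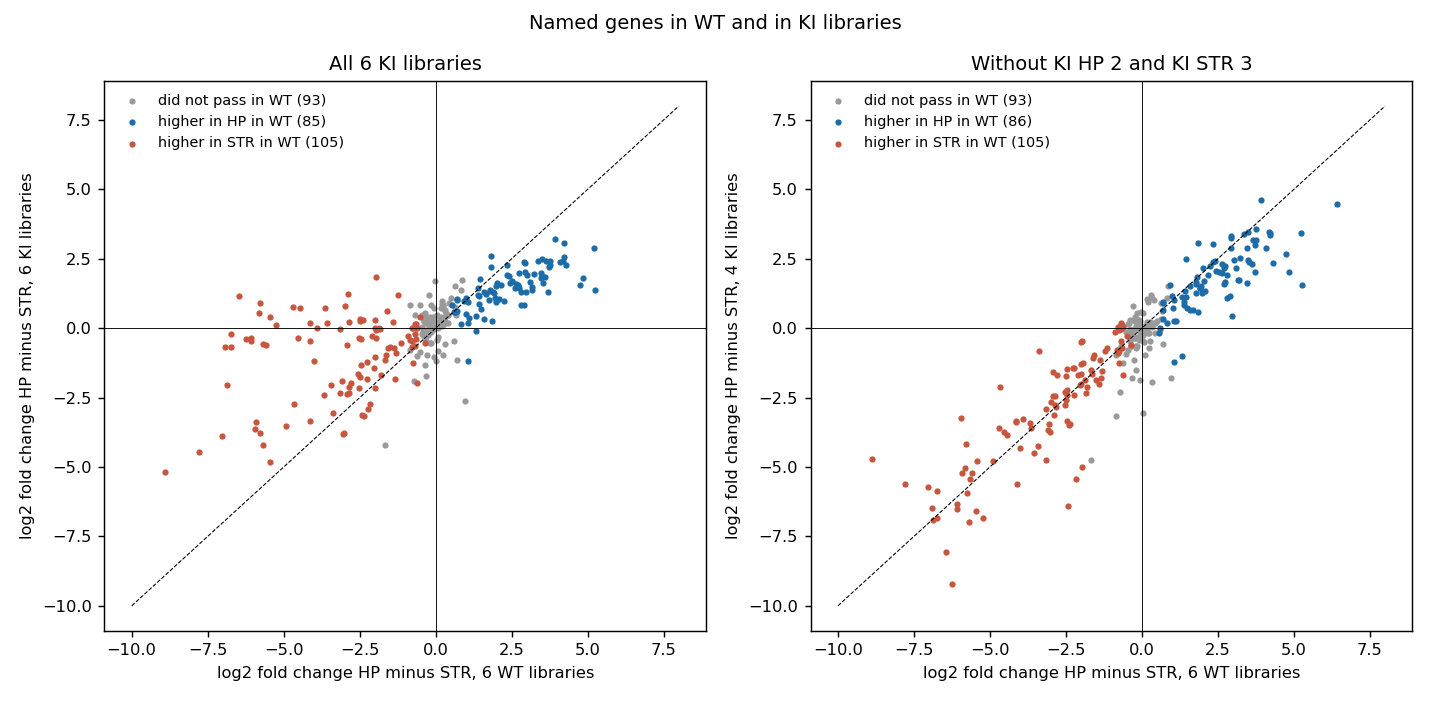
Log2 fold change, HP minus STR, of the named genes in the 6 WT libraries (horizontal axes) and in all 6 KI libraries (left, vertical axis) or the 4 KI libraries kept (right), coloured by the WT call, with the line of equality dashed. Of 105 genes called higher in STR in WT, 77 lie below 0 with all 6 KI libraries and 100 with the 4, and of those called higher in HP, 83 of 85 and 83 of 86 lie above 0.

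The transcript table allowed a look at which form of a gene each region used. The share of at least 1 transcript within its gene differed in 134 of 8489 genes with at least 2 kept transcripts (1.58%) by edgeR's diffSpliceDGE with Simes p-values adjusted over genes. Of these, 120 had a mean of at least 200 counts in each group, 44 also had a share that moved by at least 20 percentage points with groups that did not overlap, and 79 of the 134 had also passed the gene-level test. Transcript counts are the authors' estimates and vary widely between libraries. On simulated libraries of that spread the test recovered 25% of 4-fold and 0% of 2-fold shifts and made 21 false calls over 7834 genes, so the 134 cannot be read as a clean set. The values per library, and the KI libraries as a repeat, are therefore given for the clearest cases.

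Synpr, the gene of synaptoporin, a synaptic vesicle protein of the synaptophysin family known from mossy fibre terminals, had the largest change. It has 2 measured transcripts on chromosome 14, whose starts lie 169178 bases apart. The share of Synpr counts on NM_028052, which starts upstream, was 96.5%, 95.7% and 92.6% in WT HP 1, 2 and 3 and 12.2%, 34.7% and 15.4% in WT STR 1, 2 and 3. By these estimates nearly all Synpr counts of WT HP fell on NM_028052. Most of those of WT STR fell on NM_001163032, which starts downstream (diffSpliceDGE, adjusted p = 0.00656). The starts themselves were not measured. The shares rest on a mean of 3803 estimated counts for the gene in HP and 2094 in STR. The gene as a whole was higher in HP by a log2 fold change of 0.97 (adjusted p = 0.0454). In the KI libraries the upstream share was 100%, 6.15% and 99.1% in KI HP 1, 2 and 3 and 13.4%, 35.5% and 70.7% in KI STR 1, 2 and 3. KI HP 2 thus lay below every STR library, and KI STR 3 lay above the other STR libraries and below the other HP libraries.

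The sequences just before the 2 annotated starts are shown because the estimated transcript shares separated the WT groups. Both windows are the 250 bases upstream of a RefSeq start on the plus strand of GRCm38.p6, 5′ to 3′, with CG dinucleotides in capitals. That of NM_028052 is chr14:13284530-13284779 and that of NM_001163032 is chr14:13453708-13453957, whose RefSeq start lies 71 bases from the GENCODE start of that transcript.
Synpr NM_028052: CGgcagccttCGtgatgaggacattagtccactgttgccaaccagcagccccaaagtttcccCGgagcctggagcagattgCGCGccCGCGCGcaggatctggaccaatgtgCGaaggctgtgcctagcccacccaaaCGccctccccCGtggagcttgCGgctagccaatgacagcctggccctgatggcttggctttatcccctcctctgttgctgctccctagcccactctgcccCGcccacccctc
Synpr NM_001163032: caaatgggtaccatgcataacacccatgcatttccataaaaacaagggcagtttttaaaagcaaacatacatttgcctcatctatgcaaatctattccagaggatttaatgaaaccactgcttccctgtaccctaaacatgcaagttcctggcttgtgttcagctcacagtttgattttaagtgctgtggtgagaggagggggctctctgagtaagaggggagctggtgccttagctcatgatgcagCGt
The window of NM_028052 holds 13 CG dinucleotides at a GC content of 64%, close to the median of 12 over 18733 such RefSeq windows. The window of NM_001163032 holds 1 at a GC content of 44.4%, and 14.7% of all windows hold 2 or fewer. This is a description of the sequence and says nothing about its methylation.

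**Figure D5:**
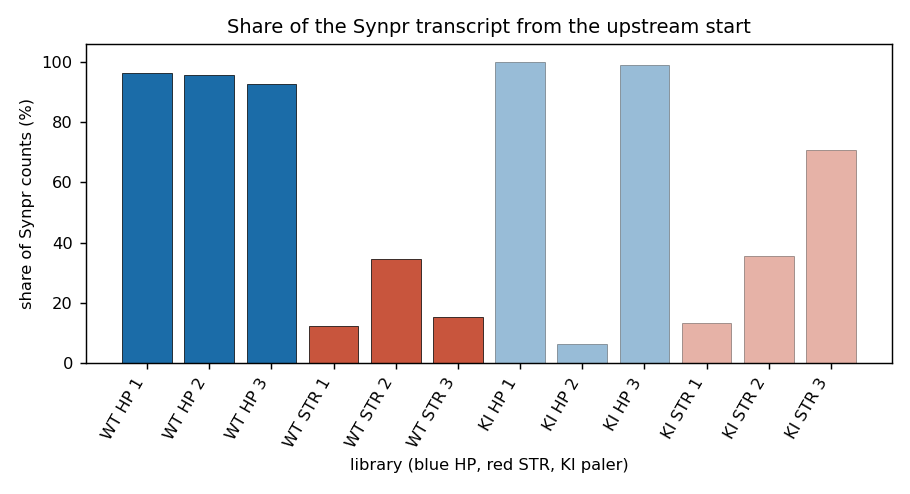
Share of Synpr counts (percent, from 0) on the transcript that starts upstream, in each of the 12 HP (blue) and STR (red) libraries, KI libraries paler. WT HP libraries lie at 92.6% to 96.5% and WT STR libraries at 12.2% to 34.7%, and the library labelled KI HP 2 lies at 6.15%.

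Other named genes differed in how far their shares were repeated in KI. Nptn, the gene of the adhesion molecule neuroplastin, did not pass at the gene level (log2 fold change 0.18, adjusted p = 0.177), but NM_001357751 took 49.3%, 51.4% and 53.7% in WT HP and 24%, 9.53% and 11.3% in WT STR. In KI it took 47.6%, 51% and 45.7% in HP and 14.4%, 22.1% and 1.71% in STR, again without overlap. Pls3, the actin bundler plastin 3, had 89.4%, 87.3% and 88.9% on NM_001346519 in WT HP and 40.3%, 56.5% and 50.6% in WT STR. In KI the HP values were 79.6%, 26.3% and 79.3%, the middle one from the library labelled KI HP 2, and the STR values 39%, 51.9% and 41.8%. Tiam1, an activator of the small GTPase Rac1, had 45.7%, 30% and 28% on NM_001145887 in WT HP and 79.6%, 80.3% and 81.5% in WT STR, and 27.7% to 41.4% against 56.9% to 77.1% in KI. These 3 genes kept their separation between the labels in KI, except for Pls3 in the library labelled KI HP 2, where the value was below that of every KI STR library. Ptk2b, a calcium-activated tyrosine kinase, had 57.1%, 71.7% and 83.1% on NM_001162366 in WT HP and 11.8%, 35.3% and 34% in WT STR. In KI it had 47.6% to 63.3% against 25.4% to 36.3%. The library labelled KI HP 2 had high striatal markers. It nevertheless lay on the HP side for Nptn (51%), Tiam1 (27.7%) and Ptk2b (57%), unlike for Pls3 and Synpr. The reason was not tested. In the other named cases the KI groups overlapped. Sptan1 NM_001177667 had 51.2% to 80.4% in KI HP and 30.3% to 60.1% in KI STR, Rapgef6 XM_017314348 had 48.1% to 69.3% and 49.9% to 57.9%, and Zcchc2 XM_006529518 had 22.8% to 38.3% and 10.9% to 40.6%. Satb1 NM_001163632, at 11.9% to 65.6% in WT STR, was at 0% in every KI STR library. In Sh2b3, XM_006530172 was at 0% in every WT HP library and at 61.9%, 58.3% and 27.5% in WT STR. In KI STR 1, 2 and 3 it was at 11.2%, 0% and 41.2%, and in KI HP at 0% to 0.872%.

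Promoter windows from 250 bases before to 50 after each RefSeq start (GRCm38.p6) were searched on both strands for 3 short motifs. The cAMP response element TGACGTCA was found in 3.34% of genes called higher in HP, 2.44% of those called higher in STR and 3.4% of all 11546 tested genes with a window. The E-box CAGATG, of a type bound by Neurod factors, was found in 15%, 15.6% and 14%, and the homeodomain core TAATTA in 3.43%, 3.63% and 3.33%. These shares are a description; a match is not a binding site.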

How the data were processed

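Bulk RNA-seq libraries of WT and KI mouse brain regions were compared, prepared with the SMARTER mRNA-Seq kit per the labels. Deposited by the authors were tables of estimated counts, for genes and for transcripts, with TPM beside them; the build is GRCm38.p6 per the submitters' processing notes, the aligner, counter and strand setting were not given in the sources used here. Estimated counts are not whole for 9.93% of the gene values and 51.25% of the transcript values, and were rounded. Of 19025 genes, 18969 matched RefSeq. A further 234 columns of per-sample values were not used.

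Genes were filtered with filterByExpr, scaled with TMM and tested with edgeR 4.0.16 (quasi-likelihood, R 4.3.3) over the 6 WT libraries, without a replicate block; p-values were adjusted by Benjamini-Hochberg over all genes tested, with a threshold of 0.05. CPM comes from these scaled libraries. WT and KI libraries were scaled separately, so their CPM values are on different scales. Transcript shares were tested with diffSpliceDGE. The SE of a log2 fold change was taken from its F statistic. Scripts were tested on simulated data. For the WT contrast they recovered 83% of 2-fold and 100% of 4-fold changes with 12 false calls among 14408 genes. For the KI contrast over 6 libraries they recovered 27% and 91%, and for the interaction 21% and 89%. Only 100 genes were changed at each fold, none of them at low counts, whereas 43.6% of genes were called in the real WT contrast.

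The members and the 40 gene lists were chosen with earlier results of these data known. Always named were Maoa and well known markers of each region; then the 12 largest called differences in each direction with groups that do not overlap and a mean log2 CPM of at least 1; up to 3 called members per direction and 3 abundant members that did not pass from each list; and the 10 largest changes in transcript share. Alternatives were DESeq2 1.42.0 and its size factors, upper-quartile scaling, no filter, all 18 WT libraries, a replicate block, removal of choroid plexus, ependymal and meningeal genes, a fold threshold, and leaving out each library. The number of libraries, 3 per group, limits the precision. Some genes that the rule names are not reported here.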

Additional observations from a re-analysis of the deposited data

How the results depend on the processing

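The WT counts of 3057 genes higher in HP and 3268 higher in STR were within 1.5 times of these values under every scaling, filter, tool and left-out library tried (2080 to 3535 and 2341 to 3195 on leaving out a library), except with a log2 fold change of at least 1 required, which left 1006 and 1678. With a replicate block they were 3522 and 3585. Same-numbered libraries deviated together with correlations of 0.17, -0.19 and 0.33, and WT HP 1 and WT HP 2 correlated best with a STR library of another number, so the numbers were not taken to pair the samples; the labels do not say whether they mark a shared animal. The KI counts of 547 and 506 became 2213 and 2695 without the libraries labelled KI HP 2 and KI STR 3, 1163 and 1160 by DESeq2, 0 and 0 with the block, and 0 to 2100 and 0 to 2046 on leaving out a library; the cause was not tested. The interaction count of 0 became 119 by DESeq2, stayed 0 with the block, and was 0 to 3 on leaving out a library. The 134 genes with changed transcript shares became 350 by the gene-level F test, 62 with the block and 50 to 225 on leaving out a library.

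Of 192 called named genes, 29 lost the call with all 18 WT libraries in the fit, 3 to 17 on leaving out a library and 0 or 1 under each other setting. Calb1 (log2 fold change -0.07) changed direction without WT STR 1 (0.34, adjusted p = 0.0385); on leaving out a library its values ran from -0.26 to 0.34. Small list counts also moved: without WT STR 2 the dentate gyrus list had 2 members higher in STR, CA1 1, immediate early genes 2, and the thalamus list 1 higher in HP. Pallial factors had 1 higher in STR without any WT HP library, WT STR 2 or WT STR 3, and metabotropic receptors 1 without WT HP 1, WT HP 2, WT STR 1 or WT STR 3.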
